A study of Mus musculus with 2 samples.

Results

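Semaphorins, ephrins, netrins and Slits are ligands that steer growing axons and migrating cells, and each family signals through its own receptors. The guidance genes examined here are the 69 protein coding genes whose symbols begin with Sema, Plxn, Nrp, Efn, Eph, Slit, Robo, Ntn or Unc5 and a member number or letter, out of 55414 genes in the deposited table. They comprise 35 ligand genes, 33 receptor genes and Unc5cl, which is named for its likeness to Unc5c. Their transcripts were measured in NHOS cells, a mouse osteosarcoma line, with 1 library from a mock-transfected culture and 1 from a culture transfected with IL10RB, a chain that several receptors of the interleukin-10 family have in common. Both cultures grew in DMEM with 10% FBS and 1 mg/ml G418. The sources used here do not say how many clones each culture came from, what species the construct was or which strain gave rise to the line. The comparison asks which guidance transcripts differ between the mock and the transfectant library.

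Secreted class 3 semaphorins bind neuropilins, which pair with A plexins to signal, while membrane-bound semaphorins of other classes bind plexins directly. A ephrins are held on the membrane by a lipid anchor and B ephrins cross it, and both bind Eph receptor tyrosine kinases on neighbouring cells. Slits bind Robo receptors, and netrins bind DCC, neogenin and UNC5 receptors. In bone, Sema3A favours osteoblasts over osteoclasts, Sema4D made by osteoclasts restrains osteoblasts through plexin-B1, and ephrin-B2 with EphB4 links both cell types.

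The libraries held 18766040 estimated counts (mock) and 23898112 (transfectant). With 1 library per group there is no test and no replicate check, and p-values are not given. Levels are CPM, counts scaled to a common library size, or the deposited TPM, which also corrects for gene length and is used wherever genes are compared with each other. Folds are ratios of CPM with exact 95% intervals, which cover counting error only. A gene counted as higher or lower if either library had 50 counts or more and with a fold of at least 2 on the scale of CPM plus 0.5. In bulk RNA, fewer cells that carry a transcript and less of it per cell cannot be told apart. Il10rb was 2.57-fold higher in the transfectant (2.32 to 2.85) at the mouse gene. As the species of the construct is not known, this may not measure the transfected gene and does not check the label. Of 10 osteoblast lineage markers, 9 passed that count, among them Runx2 at 49.2 and 76.4 TPM and Sp7 at 78.4 and 71.2 TPM. Of these 9, 3 were higher in the transfectant library and 0 lower, beside 19.7% and 11.9% of all genes with that count. The 3 were Ibsp, Bglap and Spp1, matrix proteins of maturing osteoblasts (312 and 3643, 94 and 699, and 153 and 816 counts). Others stayed within 2-fold: Alpl was 1.41-fold lower (1.39 to 1.44), and Col1a2, Col1a1 and Sparc were at ratios of 1.00, 1.32 and 1.94. The part of the marker differences in the guidance genes was not tested. Markers of nerve, vessel and blood were low. The summed TPM in mock and transfectant was 11.7 and 4.12 for 8 neuron markers, 1.53 and 0.872 for 8 endothelial and 3.90 and 7.49 for 8 leukocyte markers. The glial markers Sox10, Gfap and Foxd3 and the vessel and blood markers Cdh5, Tek, Tie1, Itgam and Tyrobp had 0 counts in both libraries. The neuronal tubulin Tubb3 had 210 and 3 counts, the lysosomal Cd68 12 and 150, and the leukocyte marker Ptprc 27 and 0. Tubb3 held most of the neuron sum in mock, at 8.23 TPM, and was at 0.088 TPM in the transfectant. The neuron marker Map2 went the other way, at 88 and 232 counts, and did not count as higher.

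Of the 69 guidance genes, 42 reached 50 counts in at least 1 library. Of those 42, 18 counted as higher in the transfectant library, against 19.7% of all genes past the same floor, and 8 as lower, against 11.9%. Among protein coding genes alone the shares were 19.9% and 11.8%. The guidance shares were 42.9% and 19.0%, with a median log2 ratio of 0.57 for the 42 genes and 0.07 for all genes past the floor. Of the 42, 31 passed the floor in both libraries. Plxnb1, Plxnb3, Epha3, Epha4, Robo2, Slit2 and Sema6b, all called higher, passed it in the transfectant library alone. Plxna3, Sema4d, Epha8 and Robo1, all called lower, passed it in mock alone. Passing in 1 library alone favours a call without forcing it, and the same rule holds for the shares of all genes. With 1 library per group, the counts describe the genes and do not set them apart. The 23 ligand genes past the floor split into 10 higher and 4 lower, and the 19 receptor genes into 8 higher and 4 lower.

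**Figure D1:**
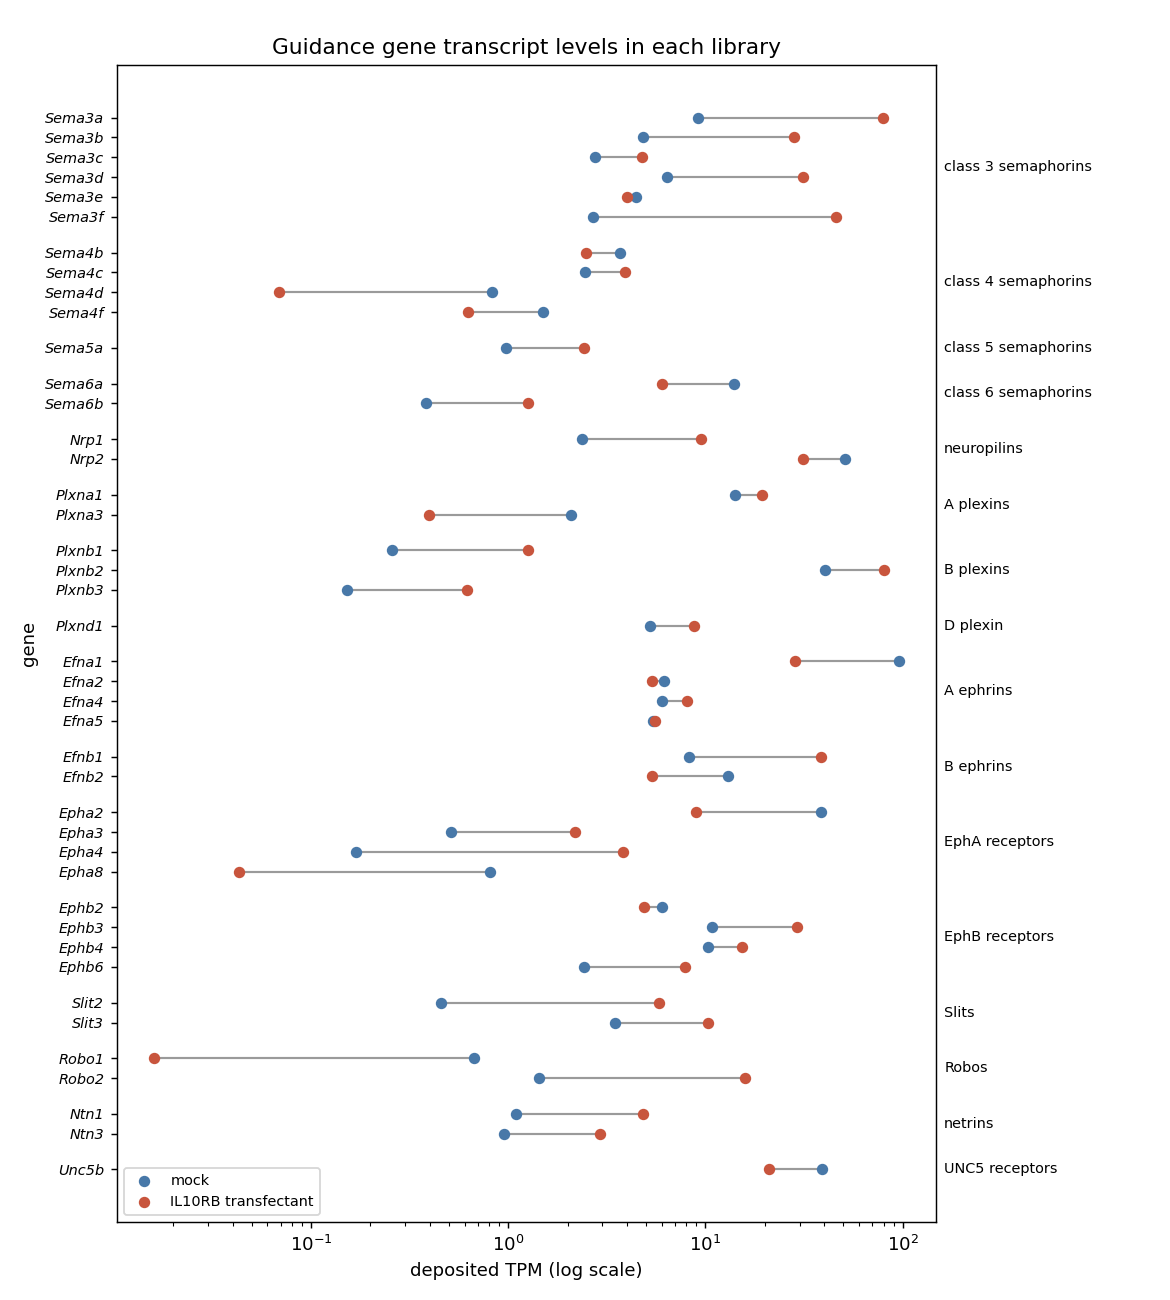
Deposited TPM (log scale) of the 42 guidance genes past the floor, with 1 point per library and genes grouped by family. Efna1 has the highest level in mock, at 95.6 TPM, and Plxnb2 (80.7) and Sema3a (79.1) the highest in the transfectant.

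The make-up of the leading guidance transcripts differed between the libraries. By TPM, the highest in mock were the A ephrin Efna1 (95.6), the neuropilin Nrp2 (51.0), the plexin Plxnb2 (40.5), the netrin receptor Unc5b (38.9) and the Eph receptor Epha2 (38.6). In the transfectant the order was led by Plxnb2 (80.7), the secreted semaphorins Sema3a (79.1) and Sema3f (45.7), the B ephrin Efnb1 (38.3) and Nrp2 (31.2). Sema3a was eleventh in mock and Sema3f was outside the first 12.

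**Figure D2:**
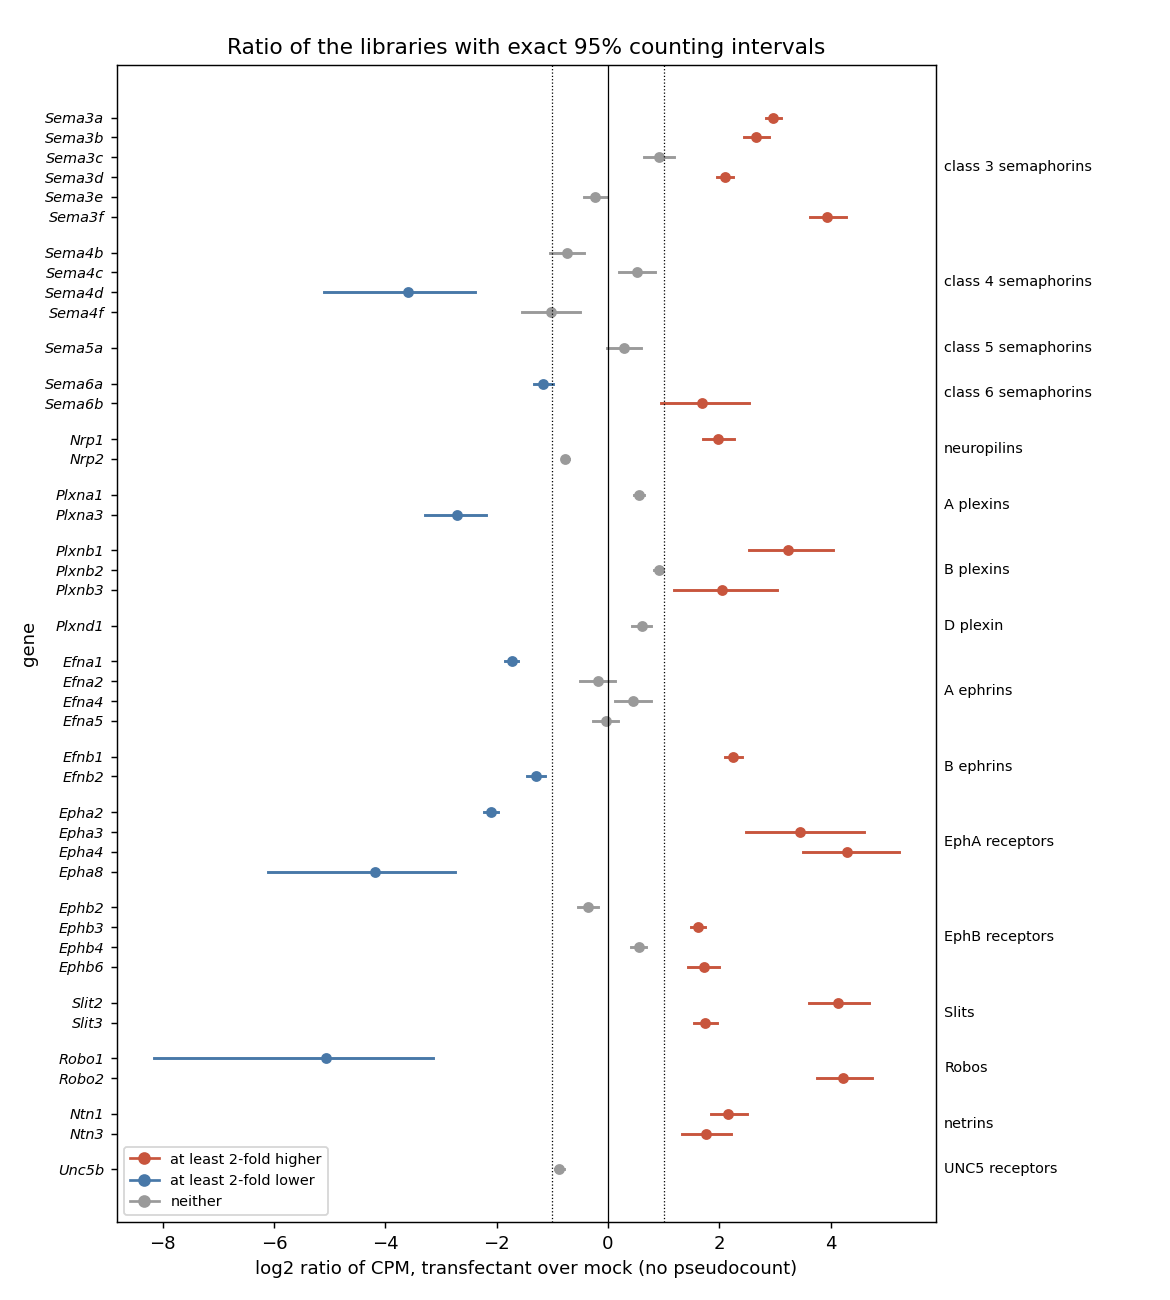
Log2 ratio of CPM, transfectant over mock and without a pseudocount, for the same 42 genes, with bars for the exact 95% counting interval and dotted lines at 2-fold. Class 3 semaphorins, Slits and netrins lie on the higher side or near 0, as do the B plexins, while neuropilins, A plexins, both ephrin and Eph classes and Robos have genes on both sides of 0.

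Promoter sequences of 5 genes are shown as examples of well-counted genes that differed in opposite directions, chosen with their values known: Sema3a, Sema3d and Efnb1 were higher and Epha2 and Efna1 lower. They are RefSeq windows in build GRCm38.p6, 300 bases long and ending 50 bases past an annotated start, written 5′ to 3′ on the gene's strand, and capitals mark a motif. Both strands were searched for the STAT element TTCNNNGAA, the AP-1 element TGANTCA, the C/EBP-ATF composite element TGATGNAA, the E-box CACGTG and the GC box GGGCGG, and a match could overlap another.
Sema3a, chr5:13396534-13396833, plus strand: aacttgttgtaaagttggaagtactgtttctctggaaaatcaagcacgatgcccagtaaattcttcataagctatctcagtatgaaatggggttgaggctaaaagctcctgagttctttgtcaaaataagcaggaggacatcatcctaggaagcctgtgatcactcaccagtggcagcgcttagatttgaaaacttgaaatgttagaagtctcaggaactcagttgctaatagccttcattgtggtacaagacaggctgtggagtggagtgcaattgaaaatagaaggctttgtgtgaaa
Sema3d, chr5:12382916-12383215, plus strand: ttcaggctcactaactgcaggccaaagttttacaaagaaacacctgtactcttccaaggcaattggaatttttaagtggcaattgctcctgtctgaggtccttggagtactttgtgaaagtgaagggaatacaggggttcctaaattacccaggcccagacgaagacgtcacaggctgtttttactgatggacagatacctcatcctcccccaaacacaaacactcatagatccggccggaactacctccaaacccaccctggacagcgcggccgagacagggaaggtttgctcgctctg
Efnb1, chrX:99135811-99136110, plus strand: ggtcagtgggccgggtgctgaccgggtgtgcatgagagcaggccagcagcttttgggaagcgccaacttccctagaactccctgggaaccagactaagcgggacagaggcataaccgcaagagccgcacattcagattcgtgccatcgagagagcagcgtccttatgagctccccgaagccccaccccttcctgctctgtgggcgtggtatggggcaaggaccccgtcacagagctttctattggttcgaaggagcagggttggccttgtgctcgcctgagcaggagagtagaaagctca
Epha2, chr4:141300971-141301270, plus strand: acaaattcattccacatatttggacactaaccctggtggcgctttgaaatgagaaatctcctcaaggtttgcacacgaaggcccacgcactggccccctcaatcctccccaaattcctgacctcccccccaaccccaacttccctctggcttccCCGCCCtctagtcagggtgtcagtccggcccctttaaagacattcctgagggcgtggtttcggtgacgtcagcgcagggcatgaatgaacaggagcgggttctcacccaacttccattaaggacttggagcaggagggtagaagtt
Efna1, chr3:89279596-89279895, minus strand: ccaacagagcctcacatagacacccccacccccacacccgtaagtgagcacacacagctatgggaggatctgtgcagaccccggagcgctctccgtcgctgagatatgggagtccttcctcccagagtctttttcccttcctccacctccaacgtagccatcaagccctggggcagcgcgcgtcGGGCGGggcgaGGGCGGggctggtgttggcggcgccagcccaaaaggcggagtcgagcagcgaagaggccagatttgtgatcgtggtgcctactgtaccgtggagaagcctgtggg
Efna1, chr3:89280902-89281201, minus strand: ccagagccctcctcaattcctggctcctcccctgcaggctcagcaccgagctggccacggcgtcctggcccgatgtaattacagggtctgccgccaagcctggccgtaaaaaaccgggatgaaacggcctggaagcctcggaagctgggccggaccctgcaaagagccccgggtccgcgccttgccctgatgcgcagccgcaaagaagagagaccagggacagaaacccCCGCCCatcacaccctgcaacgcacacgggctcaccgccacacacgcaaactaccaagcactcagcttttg
The only motif found in these windows was the GC box, with 1 in Epha2, 2 and 1 in the Efna1 windows and 0 in Sema3a, Sema3d and Efnb1. The windows held 2 CpG dinucleotides in Sema3a, 8 in Sema3d, 14 in Efnb1, 10 in Epha2 and 20 in each Efna1 window, and the median was 16.5 for the windows of higher and of lower guidance genes alike. The Sema3a window stands at a RefSeq start that lies 271 kb inside the gene as GENCODE vM21 draws it on the same build, and its outermost start is not shown. The starts of the other windows lie within 1.5 kb of the GENCODE gene start. Windows were found for 60 of the 69 genes, 76 in all. A GC box was in 10 of 18 windows (55.6%) of higher genes, 7 of 10 (70.0%) of lower genes and 15 of 18 (83.3%) of genes within 2-fold, against 64.3% of 11424 windows of protein coding genes past the floor and 35.7% of all 32851 windows. The STAT element was in 1 of 18, 0 of 10 and 1 of 18 windows of these groups, in 6.78% of windows of protein coding genes past the floor and in 8.30% of all windows. The AP-1 element was in 3 of the 76 guidance windows, 5.02% of those of protein coding genes past the floor and 7.81% of all. The E-box was in 5, 10.2% and 7.15%, and the composite element in 0, 2.09% and 3.97%. A match is a description of the letters in a window and shows no binding.

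Of the 7 secreted class 3 semaphorins, 6 passed the floor, 4 counted as higher and 0 as lower, against 19.7% and 11.9% of all genes past the floor. The summed level of the class was 30.4 TPM in mock and 193 in the transfectant. Sema3a, the founding repellent ligand of the class, was at 28.2 CPM in mock (521 counts) and 222 CPM in the transfectant (5397 counts), a 7.86-fold difference (7.18 to 8.62). It lies on chromosome 5 from 13175381 to 13652533, in the coordinates of the deposited table, whose build the sources used here do not name. These coordinates differ from those of GRCm38, in which the windows above are given, so positions cannot be compared between them. The difference was not that of Sema3a alone, since the other 6 genes summed to 21.2 TPM in mock and 114 in the transfectant. Sema3f, which prefers neuropilin-2, was at 4.61 and 71.0 CPM (85 and 1725 counts), the largest fold of the class at 15.4 (12.4 to 19.4). Sema3b, a relative that binds both neuropilins, was at 9.54 and 60.6 CPM, 6.36-fold apart (5.43 to 7.47). Sema3d, a repellent that also acts in heart and vessel development, was at 24.4 and 105 CPM, 4.29-fold apart (3.88 to 4.76).

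The remaining class 3 genes did not pass 2-fold. Sema3c, which guides neural crest cells in the outflow tract of the heart, was at 8.78 and 16.6 CPM (1.89-fold, 1.57 to 2.28). Sema3e, which signals through plexin-D1 without a neuropilin, was at 19.2 CPM in mock and 16.5 in the transfectant, at a ratio of 0.855 (0.739 to 0.989). Sema3g had 0 and 9 counts, under the floor. The share of Sema3a in the class's summed TPM was 30.3% in mock and 41.0% in the transfectant, that of Sema3f 8.88% and 23.7%, and that of Sema3e 14.6% and 2.06%.

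Neighbouring class 3 genes on chromosome 5 were not all alike, while both of those on chromosome 9 were higher. Sema3d, Sema3a, Sema3e and Sema3c lie in this order within 5502 kb of chromosome 5, and the first pair was higher while Sema3e and Sema3c stayed within 2-fold. Of 17 other protein coding genes in that stretch, Cacna2d1, a calcium channel subunit, alone passed the floor, at 1.40-fold (1.12 to 1.75). Sema3b and Sema3f lie within 113 kb on the minus strand of chromosome 9, with Gnai2, Slc38a3 and Gnat1 between them. Gnai2, which encodes an inhibitory G protein subunit, was 2.03-fold higher (1.98 to 2.09), against 6.36-fold and 15.4-fold for its neighbours. Slc38a3 had 8 and 0 counts and Gnat1 9 and 8.

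Membrane-bound semaphorins were mixed in direction and, Sema6a aside, low. Sema6a, a transmembrane ligand of A plexins, was the most abundant of them in mock, at 43.9 CPM (810 counts) and 19.7 CPM in the transfectant (478 counts), 2.23-fold lower (1.99 to 2.51). Sema6b, of the same class, was at 18 and 77 counts, 3.25-fold higher (1.92 to 5.77), and was under 2-fold with a pseudocount of 2 CPM or in TPM plus 0.5. Sema4d, the plexin-B1 ligand, had 55 and 6 counts, 12.1-fold lower (5.21 to 34.3). Class 4 otherwise stayed within the call: Sema4b was at 11.3 and 6.83 CPM, Sema4c at 6.61 and 9.46, and Sema4f at 4.34 and 2.14. For Sema4f the ratio was 2.03-fold lower (1.41 to 2.93), which the pseudocount brings under 2-fold. Sema5a, a ligand with thrombospondin repeats, was at 149 and 239 counts, 1.22-fold higher in CPM but 2.51-fold in TPM.

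The neuropilins, which bind class 3 semaphorins and VEGF, differed in opposite directions. Nrp1, the main Sema3A receptor chain, was at 7.21 CPM in mock (133 counts) and 28.4 in the transfectant (691 counts), 3.94-fold higher (3.27 to 4.78). Nrp2, preferred by Sema3F, was at 279 and 165 CPM (5153 and 4001 counts), 1.70-fold lower (1.63 to 1.77) and short of the call. Nrp2 remained the more abundant by TPM, at 21.5 times Nrp1 in mock and 3.30 times in the transfectant.

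Plexins are the signalling receptors of semaphorins. Plxnb2, the most abundant of the 9, was at 107 and 200 CPM, 1.88-fold higher (1.78 to 1.98) and just short of the call. It made up nearly all of the B plexins, which summed to 40.9 and 82.6 TPM. Plxnb1, the Sema4D receptor, was at 17 and 212 counts, 9.46-fold higher (5.77 to 16.6) in CPM but 4.91-fold in TPM. Plxnb3, the Sema5A receptor, was at 13 and 71 counts (4.14-fold, 2.28 to 8.16) and was under 2-fold with a pseudocount of 2 CPM or in TPM plus 0.5.

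Plxna1, the leading co-receptor with neuropilins here, was at 83.6 and 122 CPM (1.46-fold, 1.38 to 1.56). Plxna3, its relative on the X chromosome, had 175 and 35 counts, 6.59-fold lower (4.56 to 9.76). Plxnd1, the Sema3E receptor, was at 22.4 and 34.2 CPM (1.53-fold, 1.35 to 1.72). Plxna2, Plxna4 and Plxnc1 had 14 and 0, 4 and 0, and 3 and 6 counts.

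**Figure D3:**
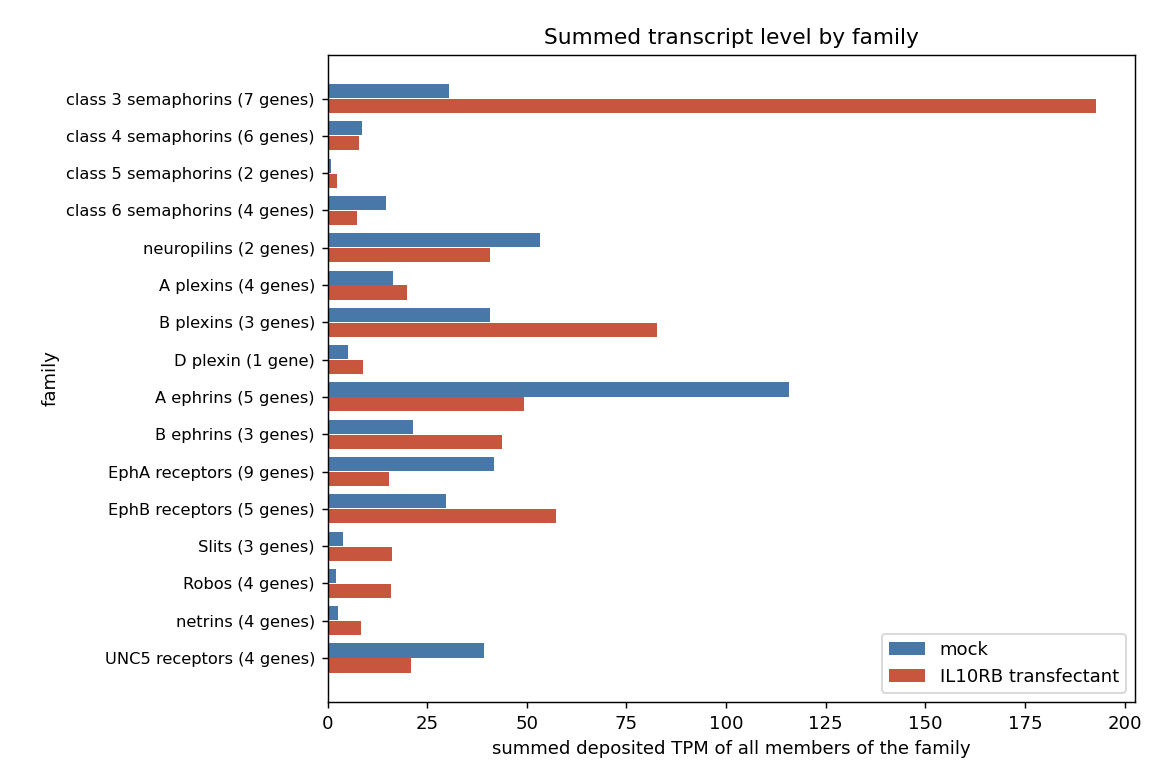
Summed deposited TPM of all members of each family with a gene past the floor, as 1 bar per library. Class 3 semaphorins stand at 30.4 and 193 TPM, A ephrins at 116 and 49.2, and EphA receptors at 41.7 and 15.5, while B ephrins and EphB receptors are higher in the transfectant.

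The A and B classes of ephrins and Eph receptors went in opposite directions in sum. A ephrins summed to 116 TPM in mock and 49.2 in the transfectant, and EphA receptors to 41.7 and 15.5. B ephrins summed to 21.4 and 43.7 TPM, and EphB receptors to 29.7 and 57.3. Each A class difference rested on 1 gene. Without Efna1 the other 4 A ephrins summed to 20.3 and 20.7 TPM, and without Epha2 the other 8 EphA receptors to 3.13 and 6.57. The B ephrin sum likewise rested on Efnb1, without which the other 2 genes stood at 13.2 and 5.38 TPM.

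Efna1, the lipid-anchored ligand that binds EphA2, was at 105 CPM in mock (1932 counts) and 31.6 in the transfectant (767 counts), 3.32-fold lower (3.05 to 3.61). It lies on chromosome 3 from 89179040 to 89188449, with Efna3 and Efna4 beside it within 66.3 kb. Neither neighbour was 2-fold lower. Efna4, which binds several EphA receptors, was at 6.99 and 9.50 CPM (1.36-fold, 1.09 to 1.70), and Efna3 had 24 and 31 counts. Efna2 and Efna5, ligands in the retinal map of the midbrain, stayed near equal, at ratios of 0.881 (0.710 to 1.10) and 0.974 (0.834 to 1.14).

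Epha2, a receptor of many epithelial and tumour cells, was at 124 CPM in mock (2280 counts) and 28.8 in the transfectant (701 counts), 4.29-fold lower (3.94 to 4.67). Epha4, a receptor that binds ephrins of both classes, was at 0.705 and 13.9 CPM (13 and 338 counts), 19.7-fold higher (11.4 to 37.4). Epha3, for which ephrin-A5 is a ligand, was at 9 and 129 counts, 10.9-fold higher in CPM (5.56 to 24.3) and 4.21-fold in TPM. Epha8, a receptor of the developing midbrain, was at 55 and 4 counts, 18.1-fold lower (6.69 to 68.8). By TPM, Epha2 was 92.5% of the EphA sum in mock and 57.6% in the transfectant, where Epha4 made up 24.6% and Epha3 14.0%. Epha5 and Epha6 had 0 counts in both libraries, Epha1 had 19 and 29, and Epha7 and Epha10 were seen in mock alone, with 12 and 17.

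Efnb1, a transmembrane ligand needed for skull suture patterning, was at 20.7 CPM in mock (381 counts) and 98.4 in the transfectant (2391 counts), 4.76-fold higher (4.27 to 5.32). Efnb2, the ligand of EphB4, was at 46.7 and 19.0 CPM (861 and 462 counts), 2.46-fold lower (2.19 to 2.76). The more abundant B ephrin therefore differed between the libraries, with Efnb1 at 0.632 times Efnb2 by TPM in mock and 7.12 times in the transfectant. Efnb3 had 8 and 0 counts.

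Among the B receptors, Ephb3, which holds cell boundaries in the gut, was at 31.5 and 96.8 CPM (582 and 2352 counts), 3.07-fold higher (2.80 to 3.36). Ephb6, which lacks kinase activity, was at 7.26 and 23.9 CPM, 3.30-fold higher (2.73 to 4.01). Ephb4, the ephrin-B2 receptor, was at 34.3 and 50.3 CPM (1.47-fold, 1.33 to 1.62), and Ephb2, a receptor of axon crossing and synapses, at 26.1 and 20.3 CPM, at a ratio of 0.778 (0.685 to 0.884). Ephb1 had 5 and 0 counts.

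The 2 Slits and 2 netrins past the floor were higher in the transfectant library, as were 19.7% of all genes past the floor. Slit2, a secreted repellent at the midline, was at 1.73 and 30.4 CPM (32 and 738 counts), 17.5-fold higher (12.3 to 25.8). Slit3, made by osteoblasts and osteoclasts in bone, had 222 and 985 counts, 3.37-fold higher (2.91 to 3.91). Slit1 had 5 and 0 counts. Ntn1, the founding netrin, was at 5.10 and 22.9 CPM (94 and 556 counts), 4.49-fold higher (3.60 to 5.65). Ntn3, its relative, was at 54 and 242 counts, 3.40-fold higher (2.52 to 4.66), while Ntn4 had 8 and 25 counts and Ntn5 had 5 and 7.

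The Robo receptors for Slits differed in opposite directions, though they are neighbours. Robo2 was at 2.01 and 37.5 CPM (37 and 912 counts), 18.7-fold higher (13.5 to 26.7) in CPM and 11.1-fold in TPM. Robo1 was at 51 and 2 counts, a ratio of 33.6-fold lower with a wide interval (8.84 to 285). Both lie on chromosome 16 within 2104 kb, Robo1 on the plus strand from 72105194 to 72842983 and Robo2 on the minus strand from 73688727 to 74208713, with 0 other protein coding genes between. Robo3 had 3 and 0 counts and Robo4, the endothelial member, 0 in both.

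Unc5b carried 98.7% of the TPM of UNC5 netrin receptors in mock and 100% in the transfectant. It was at 186 CPM in mock (3426 counts) and 102 in the transfectant (2468 counts), 1.83-fold lower (1.74 to 1.93), short of the call and opposite in direction to Ntn1. By TPM it stood at 35.5 times Ntn1 in mock and 4.34 times in the transfectant. Unc5c had 39 and 0 counts, a CPM 17.1-fold lower with the transfectant's 0 set at 3 counts. The exact interval starts at 13.3-fold lower, and the gene was under the floor for a call. Unc5a and Unc5d were seen in mock alone, with 1 and 3 counts, and Unc5cl had 0 in both.

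Many genes had a few counts in mock alone. Of 22 guidance genes under the floor with a count, 13 had counts in mock alone and 2 in the transfectant alone, although the transfectant library was deeper. The same held for all protein coding genes in that range, with 51.1% seen in mock alone and 14.2% in the transfectant alone. Among 1489 olfactory and vomeronasal receptor genes, chemosensory genes of the nose, 644 had a count in mock and 51 in the transfectant. These receptor genes averaged 0.571 counts per kb in mock and 0.0648 in the transfectant. Robo1, at 6.74 counts per kb in mock, was matched or passed by 7 of the 1489 receptor genes. None of them reached Epha8 (11.7), Sema4d (12.3) or Plxna3 (25.2 counts per kb). Subtracting these averages, an alternative chosen after seeing the data, left 18 higher and 8 lower guidance genes. The averages are far under the counts per kb of Robo1, Epha8, Sema4d and Plxna3, so the subtraction could hardly change those calls. It does not cover reads that fall unevenly, as in the 7 receptor genes that reached Robo1. The part of reads like those of the receptor genes in the low mock values of Robo1, Epha8 and Sema4d was not tested.

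**Figure D4:**
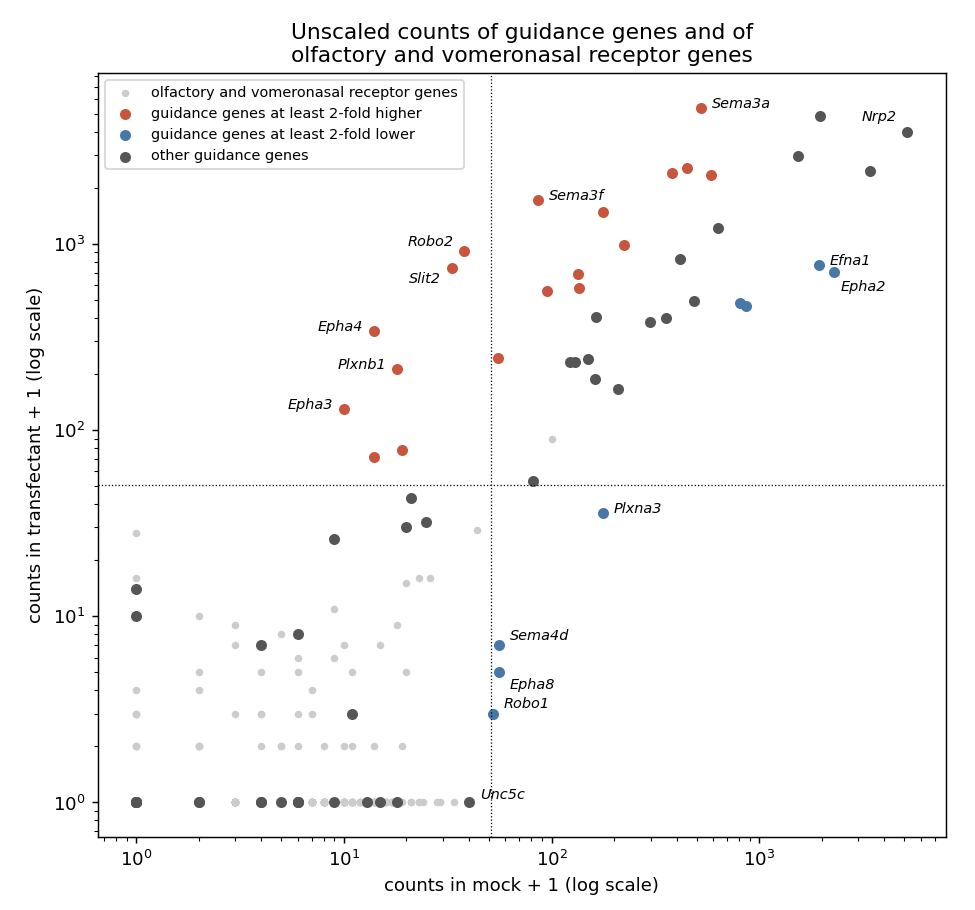
Counts plus 1 in mock and transfectant (log scales, not scaled for library size) for the 69 guidance genes and 1489 olfactory and vomeronasal receptor genes, with dotted lines at 50 counts. Robo1, Epha8 and Sema4d sit at 51 to 55 counts in mock beside the floor, and the receptor genes are seen mostly in mock.

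Deposited TPM and CPM gave unlike folds for a few genes. Among the 42 genes, the fold differed by more than 1.5 times between the scales for Epha3, Plxnb1, Robo2 and Sema5a, whose values are given above. Of these, Sema5a alone was within 2-fold in CPM, and its log2 ratio of TPM with the pseudocount was 0.999, just under the call. The cause of the gap was not tested.

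Genes that act with the guidance receptors were mixed. Of 11 genes of the DCC and RGM branch of the netrin pathway, 6 passed the floor, 4 were higher (3 with upper quartile scaling) and 0 lower, against 19.7% and 11.9% of all genes past the floor. The median log2 ratio of the 6 was 2.03, and that of all genes 0.07. Draxin and Rgma passed the floor in the transfectant library alone, where they are high. The median therefore describes the list and does not set it apart. Draxin, a secreted ligand of DCC, was at 25 and 839 counts (25.5-fold, 17.1 to 39.6) and Rgma, a ligand of neogenin, at 2 and 111 (42.1-fold, 11.4 to 352). Flrt3, a membrane ligand of UNC5 receptors and partner of Robo1, was at 54 and 668 counts (9.39-fold, 7.11 to 12.6), and its relative Flrt2 at 82 and 233 (2.16-fold, 1.67 to 2.81). The receptor neogenin, Neo1, was at 31.5 and 39.7 TPM and within 2-fold, and Dcc had 5 and 0 counts.

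Of 24 semaphorin and plexin signalling partners, 20 passed the floor, 3 were higher and 1 lower, with a median log2 ratio of 0.19. Mical1, an enzyme that oxidises actin downstream of plexins, was 2.71-fold higher (541 and 1933 counts, 2.46 to 2.99). Its relative Mical2 was 3.09-fold lower (281 and 120 counts, 2.48 to 3.85). The kinases Cdk5 and Fes were 2.61-fold (2.36 to 2.89) and 2.49-fold (2.21 to 2.81) higher. These shares, 3 and 1 of 20, are at or under those of all genes.

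Of 26 Eph and ephrin signalling partners, 23 passed the floor, 7 were higher and 5 lower, with a median log2 ratio of 0.28. The shares of all genes were 19.7% and 11.9%. Ngef, or ephexin-1, which binds EphA receptors, was at 494 and 33 counts (19.7-fold lower, 13.9 to 29.0), in the direction of Epha2 and opposite to Epha4. Chn1, an EphA4 effector that switches off Rac, was at 102 and 31 counts (4.34-fold lower, 2.88 to 6.71), and its relative Chn2 at 4 and 52 counts (9.87-fold higher, 3.63 to 37.6). The adaptor Nck2 was at 260 and 1197 counts (3.49-fold higher, 3.05 to 4.01).

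Of 16 Slit and Robo signalling partners, 14 passed the floor, 4 were higher (3 with upper quartile scaling) and 3 lower, beside 19.7% and 11.9% of all genes, with a median log2 ratio of 0.37. Flrt3, given above, is on both lists. Usp33, a deubiquitinase that binds Robo1, was at 1484 and 349 counts (5.60-fold lower, 4.98 to 6.31). The secreted factor Ndnf was at 2220 and 1155 counts (2.53-fold lower, 2.36 to 2.72). Gpc1, a heparan sulphate proteoglycan that binds Slits, was at 5899 and 17057 counts (2.19-fold higher, 2.13 to 2.26).

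**Figure D5:**
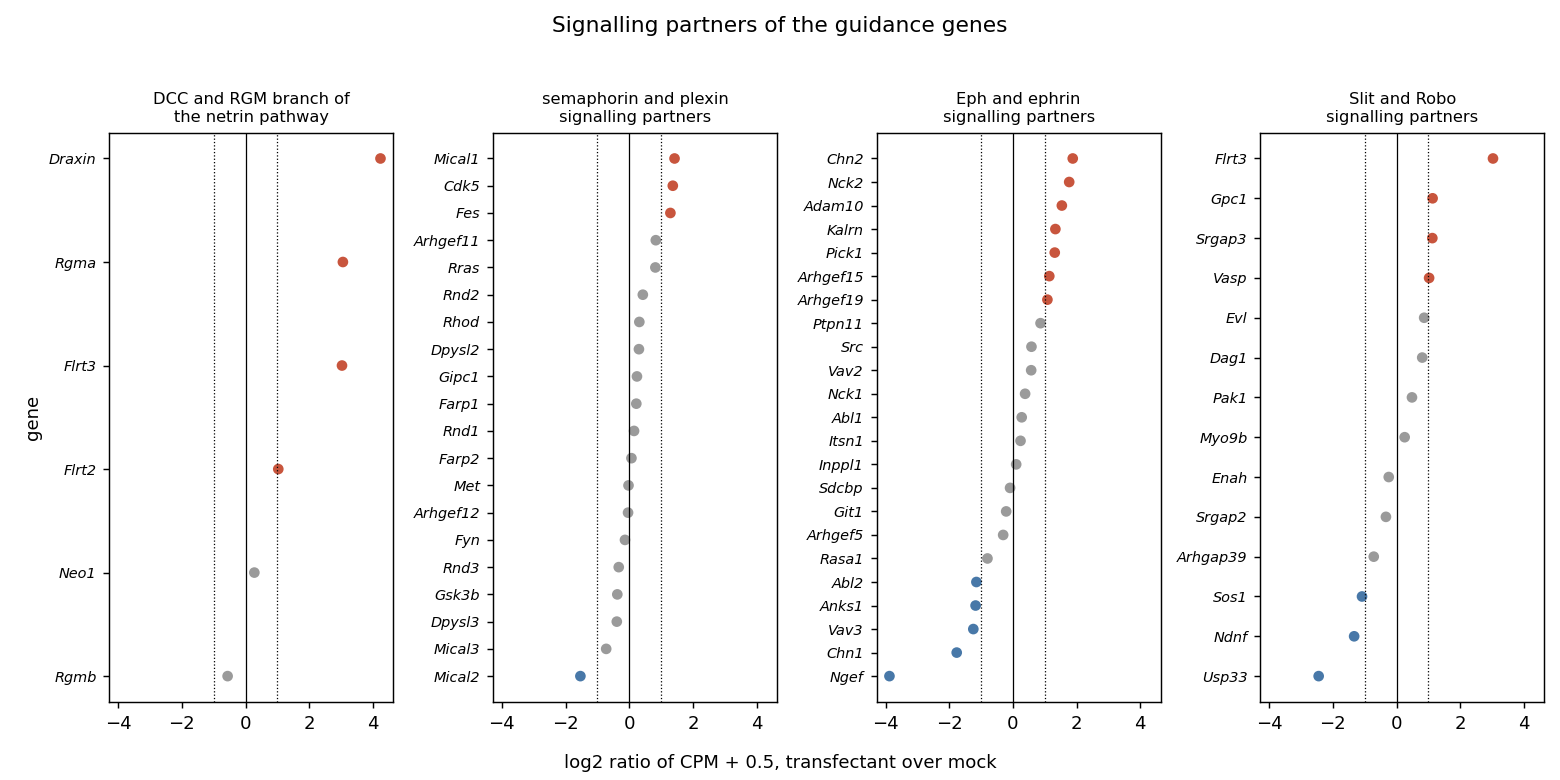
Log2 ratio of CPM plus 0.5, transfectant over mock, for the signalling partners past the floor, in 1 panel per list with dotted lines at 2-fold. Draxin, Rgma and Flrt3 lie at the higher end and Ngef and Usp33 at the lower, and most semaphorin and plexin partners lie within 2-fold.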

How the data were processed

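RNA of 1 mock and 1 IL10RB-transfected NHOS culture was extracted with an RNeasy kit and amplified as cDNA with SMART-Seq v4, per the labels' protocols, with no molecular identifiers named. The submitters' processing notes name DRAGEN; the sources used here give no version, build, annotation or strand setting, so overlapping genes cannot be separated. The deposited table gives an estimated count and a TPM per gene and library, per the file headers. The authors' TPM values are scaled for length and depth, and the counts are not normalised.

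Estimated counts were rounded and scaled by TMM factors (0.983 mock, 1.02 transfectant; edgeR 4.0.16, R 4.3.3), with DESeq2 1.42.0 size factors as an alternative; neither gave a test. One count equalled 0.0542 CPM in mock and 0.0411 in the transfectant, and the limit for 0 counts (3 counts) was 0.163 and 0.123 CPM. Calls used log2(CPM + 0.5), which understates low genes. Ratio intervals are exact conditional (Clopper-Pearson) at 95%. Fractional counts touched 2 of the 69 genes, and 3 noncoding symbols that match were left out. Ratios, intervals and plots came from scipy 1.17.1, numpy 2.4.6 and matplotlib 3.10.9 under Python 3.11.15, with tables read by pandas 2.3.3.

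Genes and lists were chosen with earlier results of these data known. Named genes are the 69 genes, the markers, Il10rb and up to 4 called genes with the largest log2 ratio from each partner list. Neo1, Dcc and the chromosome neighbours were added after their values were seen. On simulated counts of this comparison with counting noise only (11653 genes), the calls found 100 of 100 genes changed 3-fold, all 100 changed 6-fold and 0 of 11453 left unchanged. The changed genes were drawn from those with more than 100 expected counts in mock, so recovery of genes with fewer, such as Slit2 or Epha4, was not tested. 1 marker is not reported here, and the sum of its list is left out.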

Additional observations from a re-analysis of the deposited data

How the results depend on the processing

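Of 79 values recomputed for counts, medians and partner lists, 71 stayed within 1.5 times the main count or within the spread of the median and 8 did not. At a fold of 4 there were 11 higher and 5 lower guidance genes, and 772 and 219 in the whole table, and at a fold of 1.5 the whole table had 3666 higher and 2853 lower, as the threshold sets. A floor of 200 counts left 4 lower guidance genes and no floor gave 2316 lower genes in the whole table, since fewer or more genes enter. The other counts ran from 15 to 21 for higher guidance genes (16 with a pseudocount of 2 or in TPM) and from 7 to 12 for lower ones. Their median log2 ratio ran from 0.09 without a floor to 0.88 with a floor of 200, and upper quartile scaling put it at 0.45 and that of all genes at -0.04, with 2056 higher and 1755 lower. Of the 26 called genes, 24 stayed past 2-fold under all 7 other settings tried per gene, Plxnb3 and Sema6b did not, and 0 changed sign. No paired analysis was possible because mock and transfectant are single libraries. For genes near 50 counts the counting error is the limit, as the interval of Robo1 shows.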
